A study of Schizosaccharomyces pombe with 2 samples.

Results

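The genes izh3 (SPAC30D11.11), tlc4 (SPAC17A2.02c) and SPAC3G6.05 of fission yeast, Schizosaccharomyces pombe, are 3 of the 5057 genes with a probe on the arrays of this study. They were chosen by their measured ratios, as membrane proteins among the transcripts most lowered in cells without mga2, so that ratio is described here with no test. All 3 lie on chromosome I and each is read by 1 probe with 3 spots per array. The reference gene table gives no products, and it gives SPAC3G6.05 no symbol, so this gene is called by its systematic name. The place of the 3 proteins in a membrane was not checked here.

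Mga2 is a membrane-anchored transcriptional activator that adjusts lipid genes to the state of the membrane. Izh proteins belong to the PAQR family, multi-pass membrane proteins related to the mammalian adiponectin receptors. They were named in budding yeast for a part in zinc homeostasis, and there some IZH genes also respond to Mga2, oxygen and fatty acids. The TLC domain, for which tlc4 is named, is a membrane-embedded domain shared by ceramide synthases such as Lag1 and by a wider group of proteins with roles in lipid handling.

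The study hybridised RNA of strain ESY173, which lacks mga2 (mga2Δ below), against RNA of strain KGY425 (WT below) on 2 two-colour Agilent arrays, 1 per pair of biological replicates. Both strains grew exponentially in rich YES medium and spent 1.5 h without oxygen in an anaerobic chamber. The sample titles call KGY425 wild type, whereas the design text of the series gives both strains a further deletion of sre1, the gene of a sterol-responsive transcription factor. Array 1 had mga2Δ in the Cy5 channel and WT in the Cy3 channel, and array 2 the reverse. No culture with oxygen was analysed here, so every value compares the strains in its absence.

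The arrays matched the labelled deletion of mga2. All 3 mga2 spots were well above background in WT on each array, against 0 of 3 in mga2Δ on array 1 and 1 of 3 on array 2, and mga2 was at least 85-fold lower in mga2Δ. On both arrays 0 of 3 sre1 spots were well above background in each strain, whereas 4964 of the 5057 probes passed the filter on dim signals. The arrays thus show no sre1 transcript above background in the strain that the titles call wild type, and WT is used here only as the name the titles give it. Median signals of gene spots were 1579 and 2322.5 in Cy5 and 858 and 897.5 in Cy3, against at most 62 and 18.5 at the negative control spots, and no gene spot was saturated. With 2 arrays, 1 residual degree of freedom per gene limits every test below.

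The izh3 transcript was lower in mga2Δ on both arrays. On array 1 its 3 spots had median signals of 4109, 3736 and 4027 in WT (Cy3) and 2095, 2022 and 2095 in mga2Δ (Cy5). On array 2 the WT spots, now in Cy5, stood at 5861.5, 6014 and 5983 and the mga2Δ spots in Cy3 at 692.5, 683 and 696. Cy5 was the brighter dye on both arrays, so raw signals of different dyes are not compared. After background correction and loess normalization, which sets the bulk of the genes on an array to a ratio of 1, the izh3 log2 ratio of mga2Δ over WT was −2.23 on array 1 and −2.09 on array 2. Its mean was −2.16 ± 0.10 (SD, n = 2 arrays), a level 4.47-fold lower without mga2. In RNA from a whole culture, fewer cells that use a gene and less RNA of it per cell cannot be told apart.

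The tlc4 ratios of the arrays lay close together. On array 1 its spots read 2214, 2261 and 2154.5 in WT and 1552, 1548 and 1425 in mga2Δ. On array 2 they read 3595.5, 3627.5 and 3646.5 in WT and 506.5, 505 and 504.5 in mga2Δ. The log2 ratios were −1.85 and −1.83, with a mean of −1.84 ± 0.015 (SD, n = 2 arrays), or 3.58-fold lower. A smaller gap between the arrays was seen in 8.02% of the genes tested.

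The ratio of SPAC3G6.05 was low on both arrays, but its size was not the same. On array 1 the spots stood at 3567, 3659.5 and 3734.5 in WT and at 1473, 1421.5 and 1511 in mga2Δ. On array 2 they stood at 4230.5, 3944 and 4047 in WT and at 685, 649 and 665 in mga2Δ. The log2 ratios were −2.61 on array 1 and −1.61 on array 2, that is 6.08-fold and 3.05-fold lower, with a mean of −2.11 ± 0.71 (SD, n = 2 arrays).

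**Figure D1:**
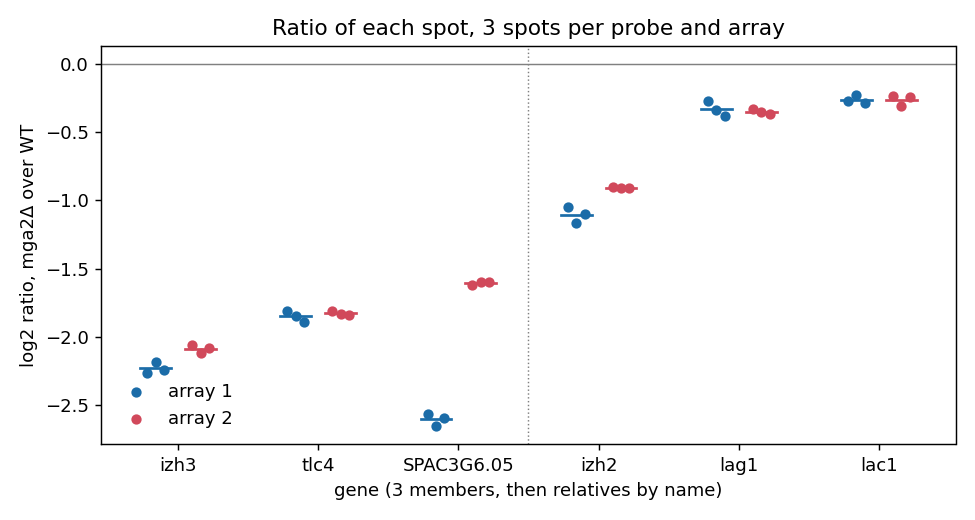
Log2 ratio of mga2Δ over WT (vertical axis) for each of the 3 spots of a probe on array 1 (blue) and array 2 (red), with lines at the mean of the 3 spots, for izh3, tlc4 and SPAC3G6.05 and, right of the dotted line, izh2, lag1 and lac1. Spots of an array lie close together, and only SPAC3G6.05 among these 6 genes has arrays about 1 log2 unit apart (−2.61 and −1.61).

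Spots of the same array hardly differed. The 3 ratios of izh3 spanned 0.083 log2 units on array 1 and 0.054 on array 2, those of tlc4 0.082 and 0.027, and those of SPAC3G6.05 0.091 and 0.020. The arrays of SPAC3G6.05, which hold separate biological replicates, were 1.00 log2 units apart, and 99.5% of the genes tested had a smaller gap. The median gap over all genes was 0.139, and over the 26 genes at least 2-fold lower on both arrays it was 0.202. Only 2 of those 26 had a wider gap than SPAC3G6.05, namely mga2, whose signal in mga2Δ was mostly not well above background, and the biotin transporter vht1. Among the 179 genes at least 2-fold higher on both arrays the median gap was 0.333, and 18 had a wider gap than SPAC3G6.05. Each array is also 1 dye orientation and 1 pair of cultures, so a dye effect of the probe and a difference between the cultures cannot be told apart.

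The normalized signal of each strain was also compared between the arrays. For izh3 the WT signal was 12.44 on array 1 and 12.23 on array 2 (log2), and the mga2Δ signal 10.20 and 10.14. For tlc4 the WT signal was 11.61 and 11.53, and the mga2Δ signal 9.76 and 9.70. For SPAC3G6.05 the WT signal was 12.33 on array 1 and 11.69 on array 2, and the mga2Δ signal 9.72 and 10.08. On array 2 its WT signal was thus lower and its mga2Δ signal higher than on array 1, with the wider difference in WT. Each strain changed dye between the arrays, so these values do not place the gap in either strain. All 3 spots of each of the genes were well above background in both strains on both arrays, so none of these ratios is a bound.

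**Figure D2:**
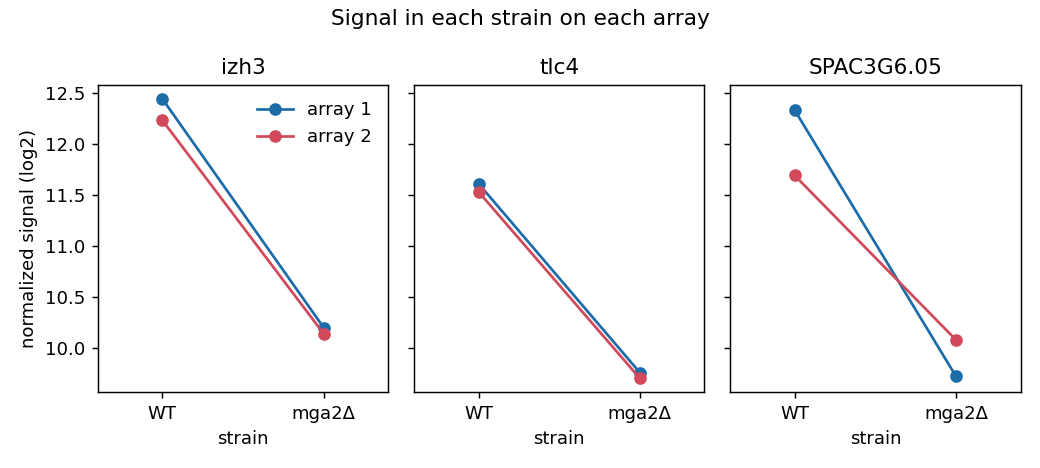
Normalized log2 signal (vertical axis) in WT and mga2Δ for izh3, tlc4 and SPAC3G6.05 on array 1 (blue) and array 2 (red), each line joining the strains of an array. Lines of izh3 and tlc4 run nearly parallel, and those of SPAC3G6.05 cross, from 12.33 to 9.72 on array 1 and from 11.69 to 10.08 on array 2.

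By mean ratio izh3, SPAC3G6.05 and tlc4 held positions 5, 6 and 9 from the lowest among the 4964 genes tested. All 3 were at least 2-fold lower on both arrays, as were 0.524% of the genes tested, a count that the choice of these genes fixes. They sat between ptl2, a triacylglycerol lipase, at −2.16 (position 4) and lcf2, an acyl-CoA ligase, at −1.69 (position 10). The delta-9 fatty acid desaturase ole1 followed at −1.60. On array 1 alone the positions of izh3, SPAC3G6.05 and tlc4 were 6, 4 and 9, and on array 2 alone 3, 11 and 8. The order of izh3 and SPAC3G6.05 turned between the arrays, and their means differ by less than the SD of SPAC3G6.05. Positions by mean ratio also moved with the processing. For izh3, SPAC3G6.05 and tlc4 they were 8, 9 and 12 with processed signals and 9, 10 and 12 with the deposited ratios. With processed signals izh3 (−2.29) and SPAC3G6.05 (−2.23) were lower than ptl2 (−2.21).

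Likeness to other genes was measured as the distance between points in the plane of the 2 array ratios, in log2 units over 2 arrays, a description in which genes of similar mean must lie close. Nearest to izh3 were ptl2 (distance 0.041), the meiosis regulator spo6 (0.103) and ptl1, another triacylglycerol lipase (0.198). Nearest to tlc4 were lcf2 (0.238), ptl1 (0.320) and ole1 (0.346). Nearest to SPAC3G6.05 were ptl1 (0.536), ptl2 (0.569) and izh3 itself (0.609), all farther away than the genes nearest to izh3 and tlc4. Between members, izh3 and tlc4 lay 0.463 apart and tlc4 and SPAC3G6.05 0.788. All these distances come from the loess ratios with an offset of 50. The mean ratio of spo6 was −2.517 with offset 16, against −2.199 for izh3. With the deposited ratios spo6 stood at −3.19, ptl1 at −2.57 and ptl2 at −2.32, against −2.31 for izh3. The nearness of spo6 to izh3 thus depended on the processing, while the mean of ptl2 stayed near that of izh3 with the deposited ratios.

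**Figure D3:**
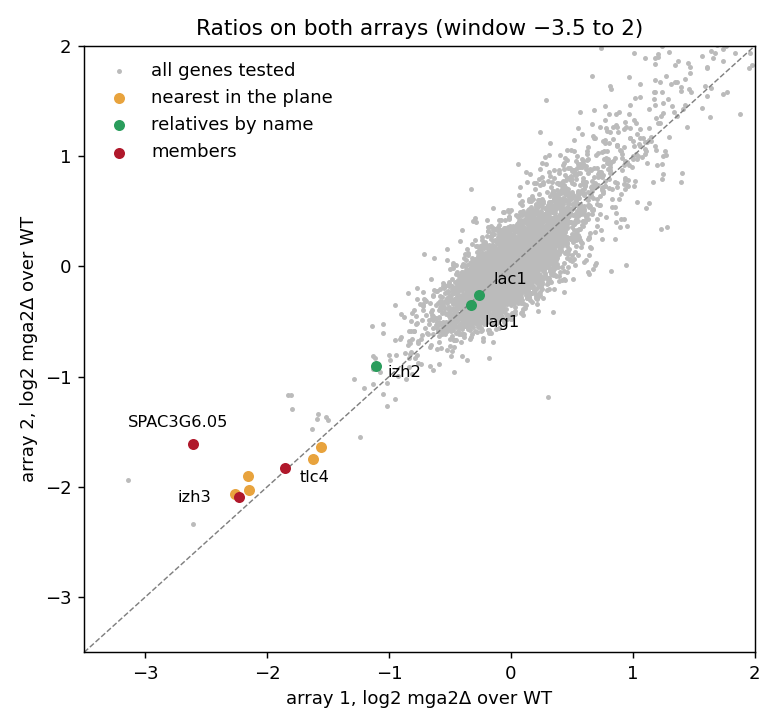
Log2 ratio of mga2Δ over WT on array 1 (horizontal axis) and array 2 (vertical axis) for the genes tested (grey, the window leaving out more extreme genes), with the 3 members (red), their nearest genes (orange) and relatives by name (green); the dashed line marks equal ratios. On this plane izh3 and tlc4 lie close to the line and SPAC3G6.05 off it, at −2.61 and −1.61.

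Genes taken as relatives were picked by symbol and not for their ratio, so they were tested. Earlier results of these data were known when the tests were chosen. The reference table gives symbols but no families. It holds 1 further Izh symbol, izh2 (SPBC12C2.09c, on chromosome II). The ceramide synthase genes lag1 and lac1 were set beside tlc4 for the domain it is named for, and their kinship was not tested. No relative of SPAC3G6.05 was found by symbol. The fall of izh2 was the clearest of the relatives. Its ratio was −1.10 on array 1 and −0.91 on array 2, with a mean of −1.01 ± 0.14 (SD, n = 2 arrays), 2.01-fold lower, and limma gave an adjusted p of 0.000558. Over all genes tested 10.9% were called lowered at a limma adjusted p of 0.05, and 18.4% raised. With each array centred on its median in place of loess, izh2 stood at −0.98 and did not pass (limma adjusted p = 0.0567).

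The signals of izh2 behind this ratio were well measured. Its normalized WT signal was 10.52 and 10.35 (log2) and its mga2Δ signal 9.42 and 9.45, with all 3 spots well above background in each. Whether the probes of izh2 and izh3 can bind each other's transcript was not tested.

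Of the ceramide synthase genes, lag1 passed the test and lac1 did not. Ratios of lag1 were −0.33 and −0.35, with a mean of −0.34 ± 0.013 (SD, n = 2 arrays, limma adjusted p = 0.03). Ratios of lac1 were −0.26 on both arrays (limma adjusted p = 0.0673). These are small differences of 1.27-fold and 1.20-fold, and their calls depended on the processing. The lag1 ratio did not pass with median centring (−0.37, limma adjusted p = 0.25) or with spike-in centring (−0.14, limma adjusted p = 0.232), and lac1 passed with processed signals (−0.34, limma adjusted p = 0.034) and the authors' deposited table of ratios (−0.35, limma adjusted p = 0.0306).

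Neighbours were taken as the nearest genes with a probe, and at least 1 gene of the reference table starts between each and its member. Their ratios were much nearer 0. Beside izh3 lie rpl3802, a ribosomal protein gene, and rad52, a recombination gene whose span overlaps that of izh3 in the reference table. The rpl3802 ratios were 0.46 and −0.05 and those of rad52 −0.11 and −0.13, and neither passed (limma adjusted p = 0.292 and 0.347). Beside tlc4, the vitamin B6 transporter gene bsu1 stood at −0.24 and 0.05 and the vacuolar ATPase subunit gene vma6 at −0.21 and −0.14, and neither passed (limma adjusted p = 0.536 and 0.188).

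On 1 side of SPAC3G6.05 the RNA-binding protein gene rnp24 was lowered, with ratios of −0.44 and −0.34 (mean −0.39 ± 0.07, SD, n = 2 arrays, limma adjusted p = 0.0199). On its other side the flap endonuclease gene rad2, whose span overlaps it, had ratios of −0.29 and −0.10 and did not pass (limma adjusted p = 0.17). Of the 6 neighbours, 1 was called lowered and none raised by limma (1 and 0 at an unadjusted p of 0.05), beside 10.9% and 18.4% of all genes. The rnp24 call was lost with median centring (limma adjusted p = 0.235) and spike-in centring (0.126), while rad52 and rad2 passed as lowered with the authors' deposited table of ratios, at −0.33 for both (limma adjusted p = 0.0392 and 0.0453). With spike-in centring rpl3802 passed as raised (0.40, limma adjusted p = 0.0488).

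**Figure D4:**
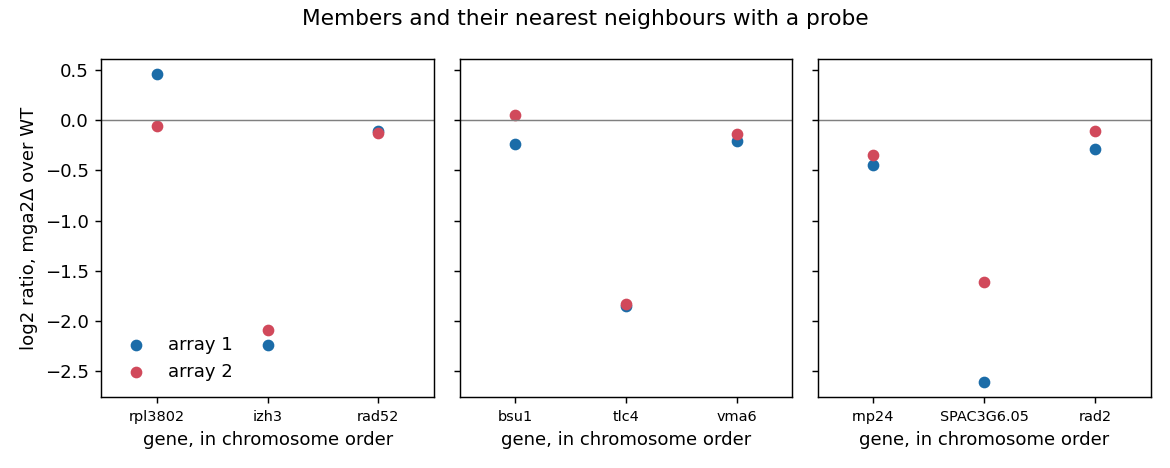
Log2 ratio of mga2Δ over WT (vertical axis) on array 1 (blue) and array 2 (red) for izh3, tlc4 and SPAC3G6.05, each between its nearest neighbours with a probe in chromosome order. The neighbours lie between −0.44 and 0.46 and the genes between them at −1.61 or lower.

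The gene lists from here on were chosen with earlier results of these data known, so their counts only describe. All 9 genes listed for fatty acid synthesis and activation, among them the biotin transporter vht1, were lowered by limma at an adjusted p of 0.05. Of all genes tested 10.9% were lowered. The median ratio of the list was −1.44, against 0.0041 over all genes tested. The largest were vht1 (−2.54 ± 0.85), lcf1, a long-chain acyl-CoA ligase (−2.47 ± 0.19), lcf2 (−1.69 ± 0.08) and ole1 (−1.60 ± 0.05), each as SD over 2 arrays. The ratio of vht1 was −3.14 on array 1 and −1.94 on array 2. Ratios of lcf1, izh3, tlc4 and SPAC3G6.05 were lower on array 1 too, and those of lcf2 and ole1 on array 2. With median centring 5 of the 9 passed, and ole1 did not (−2.16, limma adjusted p = 0.101).

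Zinc homeostasis genes were listed for the origin of the Izh name. Of 8 tested, 1 was raised and 2 were lowered, beside 18.4% and 10.9% of all genes, with a median of −0.07. The raised gene was zym1, a metallothionein (3.94 ± 0.68), and the lowered ones adh4, an alcohol dehydrogenase (−1.02 ± 0.08, limma adjusted p = 0.000407), and fet4, a metal transporter (−0.30 ± 0.02, limma adjusted p = 0.0445). Ratios of the zinc importer zrt1 were −0.30 and 0.05, and those of loz1, a zinc-responsive repressor, 0.34 and 0.14, and neither passed (limma adjusted p = 0.437 and 0.109). With spike-in centring fet4 did not pass (−0.10, limma adjusted p = 0.38) and loz1 did (0.44, limma adjusted p = 0.0123), and with median centring fet4 did not (limma adjusted p = 0.548). The fet4 ratio was −0.50 with processed signals (limma adjusted p = 0.00681) and −0.77 in the authors' deposited table (limma adjusted p = 0.00135), where zrt1 passed as lowered too (−0.34, limma adjusted p = 0.0392).

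Sphingolipid synthesis, the pathway of the ceramide synthases, and very-long-chain elongation were pooled in 1 list. Of its 12 genes 6 were lowered and 1 was raised, beside 10.9% and 18.4% of all genes, with a median of −0.30. With spike-in centring 4 were lowered and 4 raised. The lowered genes included all 4 listed enzymes of the elongation cycle. These were tsc13, the enoyl reductase (−1.44 ± 0.11), phs1, the dehydratase (−1.03 ± 0.14), and the elongases elo1 (−0.65 ± 0.18) and elo2 (−0.55 ± 0.07), each as SD over 2 arrays. With median centring tsc13 and phs1 passed, and elo1 and elo2 did not, at about equal ratios of −0.59 and −0.54 (limma adjusted p = 0.175 and 0.143). The raised gene was the sphinganine hydroxylase gene sur2 (0.53 ± 0.28, limma adjusted p = 0.0176), which did not pass with median centring (0.57, limma adjusted p = 0.198). Outside the elongation cycle, only lag1 (−0.34) and scs7 (−0.44) were lowered. The genes not called were lcb1 (−0.14), lcb2 (0.11), lac1 (−0.26), aur1 (0.25) and css1 (0.23).

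Of 15 sterol synthesis genes 3 were raised and 3 lowered, beside 18.4% and 10.9% of all genes, with a median of 0.0051. The largest ratios were those of erg32, a C-5 sterol desaturase (1.02 ± 0.29), hmg1, HMG-CoA reductase (−0.92 ± 0.10), erg26 (0.43 ± 0.14) and erg31 (−0.37 ± 0.04), each as SD over 2 arrays. None of these 4 passed with median centring (limma adjusted p = 0.0675, 0.0506, 0.673 and 0.262), erg31 did not with spike-in centring (0.164), and erg26 did not with the authors' deposited table of ratios (0.0511). Of the 13 peroxin genes, which build peroxisomes, 1 was raised and none lowered by limma (2 and 0 at an unadjusted p of 0.05), beside 18.4% and 10.9% of all genes, with a median of 0.10. The raised one was pex5, the import receptor (0.45 ± 0.016, limma adjusted p = 0.0117), which did not pass with median centring (limma adjusted p = 0.197). The next ratios in size, pex13 at 0.28 and pex7 at 0.19, did not pass (limma adjusted p = 0.0681 and 0.555), although pex13 did with spike-in centring (0.48, limma adjusted p = 0.00811).

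The ratios of the 3 chosen genes were also computed under 7 other settings of the processing. Across these the mean ratio of izh3 stayed between −2.31 and −1.96, that of tlc4 between −2.01 and −1.64 and that of SPAC3G6.05 between −2.27 and −1.91. For each of the 3 genes the lowest value came with the authors' deposited table of ratios. The highest came with spike-in centring, which moves all genes alike. The gap between the arrays of SPAC3G6.05 was seen in the authors' deposited table as well, at −2.75 and −1.78.

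**Figure D5:**
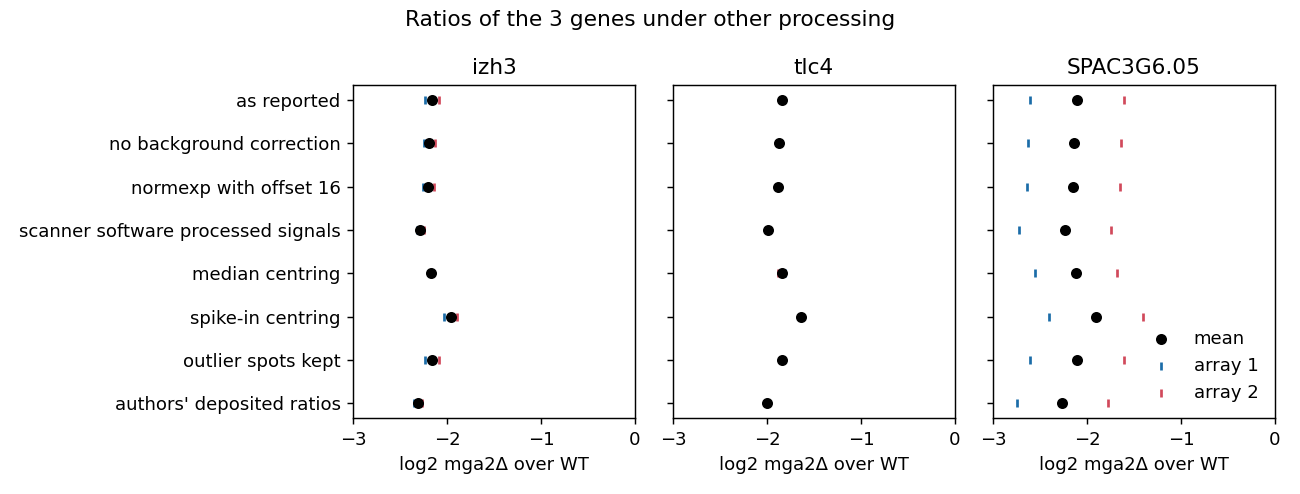
Mean log2 ratio of mga2Δ over WT (horizontal axis, black points) of izh3, tlc4 and SPAC3G6.05 under each processing setting (vertical axis), with ticks for array 1 (blue) and array 2 (red). All means lie between −2.31 and −1.64, and the ticks of SPAC3G6.05 stay far apart in every setting shown.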

How the data were processed

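RNA of both strains was compared on 2 two-colour arrays, from 400 ng of total RNA per labelling reaction, per the labels' protocols. The authors extracted spots with Agilent Feature Extraction 10.5.1.1, protocol GE2_105_Dec08, per the file headers. The deposited scanner tables give the median intensity of each spot and its local background, processed intensities corrected and dye-normalized by that software, and a log10 ratio (Cy5 to Cy3). The authors' deposited table adds a log2 ratio for every probe on both arrays. It correlates at r = 0.987 on each array with the scanner ratios turned to mga2Δ over WT (across 5057 probes, which are not independent replicates) and has medians of −0.078 and −0.115, which gives its direction but not its centring. The submitters' processing notes list Partek too, without its role.

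Median intensities were corrected with normexp (offset 50) and normalized by loess within each array, using limma 3.58.1 in R 4.3.3, with control spots and outlier spots given weight 0. Outlier spots (3.57% and 3.36% of gene spots) were left out, and the 3 spots of a probe were averaged. Tested were the 4964 of 5057 probes that had, on each array, at least 2 spots well above background in either channel. The log2 ratio of mga2Δ over WT was tested against 0 (lmFit and eBayes, two-sided), and p-values were adjusted by Benjamini-Hochberg over all probes tested. No dye term could be fitted with 2 arrays. The signal of a strain comes from loess and Aquantile normalization. The bound for mga2 divides its mean signal in WT by the dimmest signal of any probe well above background in mga2Δ, or by its own where that is brighter. Spike-in centring moved both arrays by the median ratio of 10 spike-in probes, averaged over the dye swap (−0.199), so the median of all genes became 0.20. Alternatives also included no background correction, an offset of 16, processed signals, median centring, outlier spots kept, the deposited ratios, other filters on dim probes, an adjusted p of 0.10 and each array alone. Steps were tested on simulated spots. Figures were drawn with Python 3.11.15 and matplotlib 3.10.9.

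Names came from a RefSeq gene table of assembly ASM294v3, in which 5021 probes matched a locus tag, 3 matched an alias and 33 had no match, and which was used for names and gene order only. Relatives were matched by symbol. Genes named in the text are the 3 members, relatives, the nearest neighbour with a probe on each side, the 3 genes nearest in the plane of the array ratios, the 4 largest ratios of each list, and mga2 and sre1. A gene that this rule would name is left out here. The ratio of zrt1, the call of sur2 and the ratios of the other sphingolipid genes were added after their values were seen. The members, gene lists and tests were chosen with earlier results of these data known.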

Additional observations from a re-analysis of the deposited data

How the results depend on the processing

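The 3 genes stayed negative in each of the 7 settings run on them and on each array alone. The izh3 ratio was −1.96 with spike-in centring, −2.29 with processed signals and −2.31 with the deposited ratios. The tlc4 ratio, whose SD is small, was −1.88 without background correction, −1.89 with offset 16, −1.64 with spike-in centring, −1.99 with processed signals and −2.01 with the deposited ratios. With 1 array left out, and so with no test, izh3 ranged from −2.23 to −2.09, tlc4 from −1.85 to −1.83 and SPAC3G6.05 from −2.61 to −1.61. Over all genes, 915 were raised and 541 lowered. These became 146 and 26 with median centring and 1921 and 188 with spike-in centring, while lowered genes numbered 812 with processed signals, 1138 with the deposited ratios (750 raised) and 814 at an adjusted p of 0.10. Raised genes made up 62.8% of calls, against 84.9% with median centring, 91.1% with spike-in centring, 52.2% with processed signals and 39.7% with the deposited ratios.

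With median centring, 0 relatives and 0 neighbours were lowered by limma. Among the lists 5 fatty acid, 1 zinc, 2 sphingolipid and 0 sterol genes were lowered. Raised in them were 1 zinc, 0 sphingolipid, 0 sterol and 0 peroxin genes. At an unadjusted p of 0.05 that setting had 1 relative, 1 neighbour, 9 fatty acid, 1 zinc, 5 sphingolipid and 3 sterol genes lowered. It had 1 zinc, 1 sphingolipid, 1 sterol and 1 peroxin gene raised. Some of these genes kept ratios of similar size (izh2 at −0.98, lag1 at −0.37 and rnp24 at −0.37) and others did not (erg26 at 0.14, and ole1 at −1.41 and −2.91 on the arrays), and the cause of the lost calls was not tested. With spike-in centring, which by construction moves every ratio up alike, 1 relative and 0 neighbours were lowered (1 and 0 at an unadjusted p of 0.05) and 1 neighbour was raised. The lists then had 9 fatty acid, 1 zinc, 4 sphingolipid and 1 sterol gene lowered. Raised in them were 2 zinc, 4 sphingolipid, 7 sterol and 6 peroxin genes. With the deposited ratios 3 relatives and 3 neighbours were lowered. The lists then had 9 fatty acid, 3 zinc, 7 sphingolipid, 5 sterol and 1 peroxin gene lowered. Raised in them were 1 zinc, 1 sphingolipid, 1 sterol and 1 peroxin gene. At an adjusted p of 0.10 the raised genes became 2 in the sphingolipid list and 2 in the peroxin list, from 1 in each. No paired analysis was possible because each ratio already pairs the strains on an array and no second fit with the array as a term leaves a residual degree of freedom. The planned protein comparison between members, the blastp search for relatives and the count of multi-pass membrane proteins were not run, since no protein sequences were used here. Per gene, 2 arrays on 1 slide limit the precision, and slide and scan could not be tested as batches.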
